A study of Mus musculus with 6 samples.

Results

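Vcan, S100a4, S100a6, S100a8, S100a9, S100a10, S100a11, Fn1, Chil3 and Ly6c2 are 10 genes whose products are characteristic of classical, Ly6C-high mouse monocytes or are released by them. They were taken by gene symbol from tables of 46072 gene identifiers, where each of the 10 symbols stood on 1 identifier. All 10 passed the filter on low counts, along with 16138 identifiers in all.

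The RNA came from unstimulated splenic monocytes of female C57BL/6 mice of 8 to 10 weeks. The mice received water (Con) or vancomycin (Van) by gavage for 6 days, vancomycin at 1 mg per gavage and 2 mg per day, and then had no antibiotic for 6 to 8 days per the labels, or 8 days per the study's account of the sequencing. Each group comprised 3 biological replicates with 1 library each, and the mice carried no genetic alteration per the labels. The monocytes were enriched by magnetic negative selection, which takes out cells bearing Ly-6G (neutrophils), Siglec F (eosinophils), lymphocyte and NK cell markers, with a stated purity of 90%. In the study's general account of the isolation, the spleens of a pair of mice of the same cohort were combined beforehand. For the sequencing it gives 3 mice per group and does not mention combined spleens, and each library is called a sample here. With bulk RNA of enriched cells, fewer cells of a type and less RNA per cell cannot be told apart. The 6 libraries held 43.4M to 61.8M estimated counts (M, 10 to the power 6), which correspond to 16.3M to 23.2M fragments. Monocyte genes were high in each sample, with Csf1r, the receptor for macrophage colony-stimulating factor, at 2985 to 3619 CPM, counts per 10 to the power 6 counts of the library. The neutrophil marker Ly6g was at 0 in all 6 samples, but 12 of 14 genes listed for neutrophils passed the filter on low counts.

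Classical monocytes leave the bone marrow, enter blood, spleen and inflamed tissue, and can convert into non-classical, Ly6C-low monocytes, which depend on the transcription factor Nr4a1. Ly6c2 encodes the surface protein that defines the classical subset. S100 proteins are small calcium-binding proteins. S100a8 and S100a9 pair to form calprotectin, which granulocytes and classical monocytes store and release and which can signal through Tlr4. S100a10 binds annexin A2, S100a11 binds annexin A1, and S100a4 and S100a6 bind cytoskeletal and other intracellular partners. Versican (Vcan) is a large chondroitin sulfate proteoglycan that binds hyaluronan, and fibronectin (Fn1) is a matrix glycoprotein bound by integrins. Chil3 (Ym1) is a secreted chitinase-like lectin.

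The 6 S100 genes lie on mouse chromosome 3 in GRCm38 and form a pair of groups. S100a4 (chr3:90603771-90606045), S100a6 (chr3:90612882-90624181), S100a8 (chr3:90668978-90670035) and S100a9 (chr3:90692632-90695721) lie within 88.9 kb, measured from the start of S100a4 to that of S100a9. S100a11 (chr3:93520488-93526287) and S100a10 (chr3:93555080-93564643) start 2916.7 and 2951.3 kb from the start of S100a4. S100a9 is on the minus strand and the other 5 are on the plus strand. Vcan lies at chr13:89655312-89742509, Fn1 at chr1:71585520-71653200, Chil3 at chr3:106147554-106167564 and Ly6c2 at chr15:75108158-75111970, each on the minus strand.

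RefSeq promoter windows of GRCm38.p6 were found for 8 of the 10 genes, all but S100a10 and Fn1. The 250 bases before the start site are shown for S100a8 and S100a9, whose levels moved together and apart from the rest, for S100a4 and S100a6, the neighbours whose levels were most alike, and for Vcan, the member called between the groups. The windows lie at chr3:90668821-90669070 (plus strand), chr3:90695722-90695971 (minus strand), chr3:90603520-90603769 (plus strand), chr3:90612644-90612893 (plus strand) and chr13:89742513-89742762 (minus strand). Each is written 5′ to 3′ on the strand of its gene, and capitals mark matches to the motifs searched.
S100a8: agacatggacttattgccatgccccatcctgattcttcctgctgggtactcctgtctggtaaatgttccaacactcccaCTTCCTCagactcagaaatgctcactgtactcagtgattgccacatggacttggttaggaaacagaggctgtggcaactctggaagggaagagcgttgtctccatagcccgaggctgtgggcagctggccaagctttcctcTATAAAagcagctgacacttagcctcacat
S100a9: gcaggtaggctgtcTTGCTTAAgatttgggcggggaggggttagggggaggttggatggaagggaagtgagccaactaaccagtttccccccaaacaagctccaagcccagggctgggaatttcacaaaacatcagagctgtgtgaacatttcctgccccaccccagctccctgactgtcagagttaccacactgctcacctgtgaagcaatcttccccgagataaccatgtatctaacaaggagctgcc
S100a4: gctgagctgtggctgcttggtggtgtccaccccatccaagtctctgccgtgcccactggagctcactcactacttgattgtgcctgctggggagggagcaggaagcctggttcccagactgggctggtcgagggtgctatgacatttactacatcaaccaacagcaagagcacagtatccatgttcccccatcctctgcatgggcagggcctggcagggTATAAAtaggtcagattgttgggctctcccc
S100a6: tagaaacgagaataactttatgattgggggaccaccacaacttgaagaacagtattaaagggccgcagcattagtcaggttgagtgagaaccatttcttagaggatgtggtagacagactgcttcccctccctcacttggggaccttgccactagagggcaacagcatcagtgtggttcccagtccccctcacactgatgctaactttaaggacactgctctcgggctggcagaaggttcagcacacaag
Vcan: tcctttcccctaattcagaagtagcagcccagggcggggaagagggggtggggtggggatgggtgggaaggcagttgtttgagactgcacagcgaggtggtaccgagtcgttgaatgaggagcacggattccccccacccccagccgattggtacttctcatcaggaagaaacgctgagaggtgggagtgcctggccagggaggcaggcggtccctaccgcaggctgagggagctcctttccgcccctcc
The motifs, searched on both strands, were those of C/EBP (TTGCNNAA), PU.1 (GAGGAAG), AP-1 (TGANTCA), the TATA box (TATAAA) and that of the glucocorticoid receptor, by its palindromic element. S100a8 held a PU.1 match on the opposite strand, 171 to 165 bases before the start site, and a TATA box at 30 to 25 bases. S100a9 held a C/EBP match at 236 to 229 bases and S100a4 a TATA box at 31 to 26 bases. S100a11 held AP-1 matches at 136 to 130 and 38 to 32 bases, and Ly6c2 held a PU.1 match at 108 to 102 bases in the first of its windows. In the window of its other start site, the PU.1 matches of Ly6c2 were at 142 to 136 and at 8 to 2 bases. The windows of Vcan, S100a6 and Chil3 held no match. Over 32851 RefSeq windows of the same length, 9.56% held the C/EBP letters, 10.6% those of PU.1, 6.75% those of AP-1, 12.4% those of the TATA box and 0.387% those of the glucocorticoid receptor. A match describes the letters only.

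Per length, the 10 genes covered a wide range of levels. The mean over the 6 samples, in fragments per kilobase of transcript per 10 to the power 6 mapped fragments (FPKM), was 611 ± 77.1 (SD, n = 6) for S100a4, 356 ± 60.2 for Ly6c2, 326 ± 150.3 for Chil3, 290.4 ± 68.1 for Fn1 and 251 ± 42.6 for S100a11. S100a6 followed at 191 ± 25.9 FPKM, S100a10 at 95.7 ± 21.8 and Vcan at 7.95 ± 4.88. S100a9 at 2.66 ± 2.15 FPKM and S100a8 at 2.61 ± 1.38 were the lowest. S100a4, S100a11, S100a6 and S100a10 were each above the next gene in the order in 6 of 6 samples. Ly6c2, Chil3 and Fn1 were not separated beyond their spread, each being above the next gene in 4 of 6 samples, and S100a9 was above S100a8 in 2 of 6.

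Vcan was the only one of the 10 genes called between the groups. It was at 54.0, 55.5 and 32.1 CPM in Con 1, 2 and 3, and at 92.6, 139.8 and 179 CPM in Van 1, 2 and 3. Every Van sample was above every Con sample. The mean was 47.2 ± 13.1 CPM in Con and 137 ± 43.2 CPM in Van (SD, n = 3 each). Vcan rose 2.90-fold, a log2 fold change of 1.54 with a standard error of 0.26 and a 95% interval from 0.94 to 2.13 (adjusted p = 0.0309, edgeR quasi-likelihood test with Benjamini-Hochberg adjustment over all genes tested). Across all genes tested, 2.00% were called, 1.08% being called higher in Van. The call depended on the samples. With 1 sample left out, Vcan remained higher in Van in each of the 6 fits, with a log2 fold change of 1.30 to 1.75, but was called only without Van 1 (adjusted p = 0.0251). The adjusted p was 0.0701 without Con 1, 0.0788 without Con 2, 0.109 without Con 3, 0.123 without Van 2 and 0.0801 without Van 3. No limma fit of the FPKM values called it, with an adjusted p of 0.134 on log2(FPKM + 1), 0.210 on log2(FPKM + 0.1) and 0.111 with a mean FPKM of at least 1. Taken alone, no gene can reach a p below 0.10 when 3 samples are permuted exactly against 3, two-sided.

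**Figure D1:**
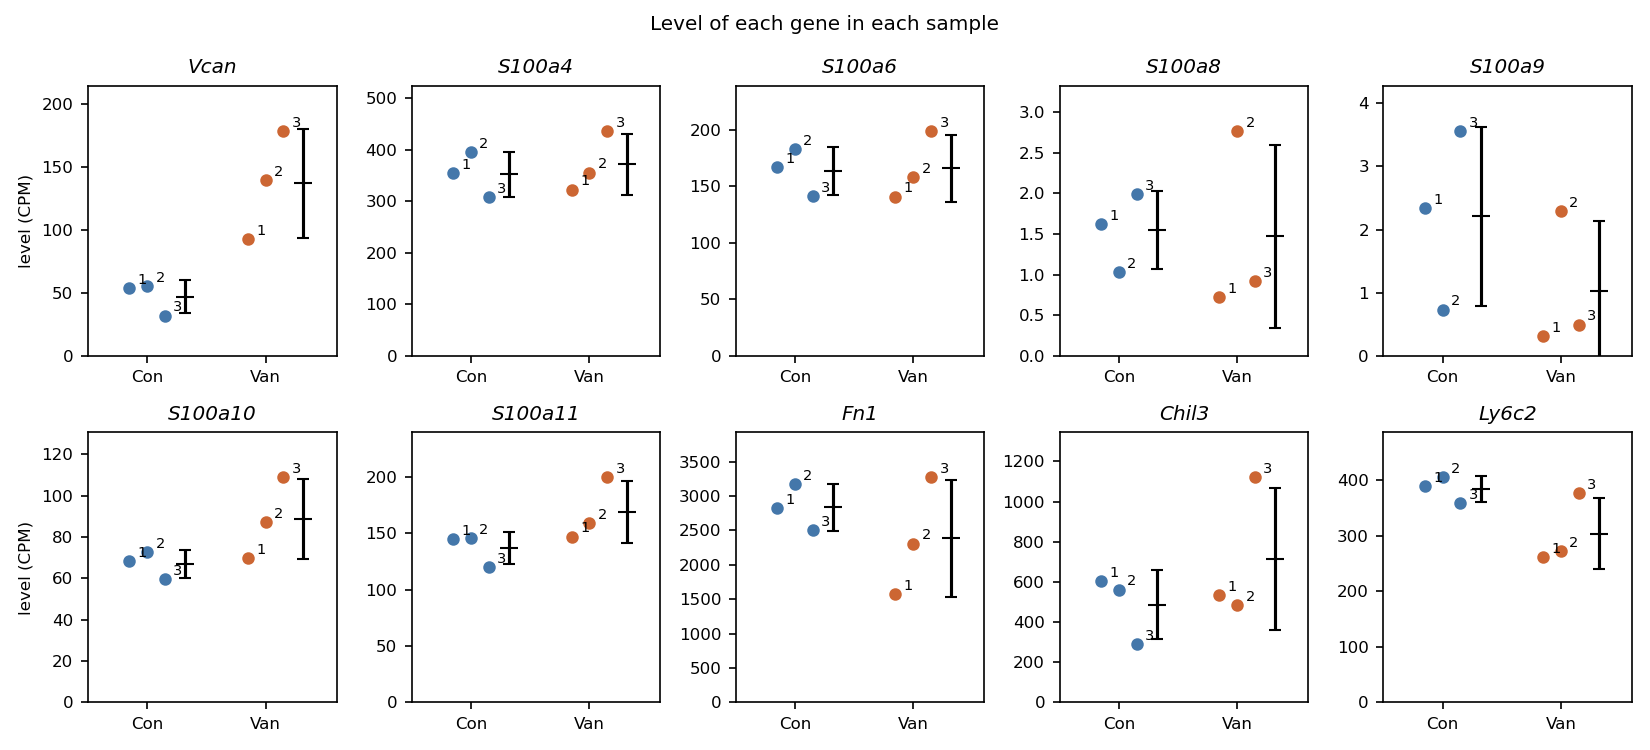
Level of each of the 10 genes in CPM (y axis, from 0, a scale per panel) in the 3 Con (blue) and 3 Van (orange) samples, with replicate numbers beside the points. Black marks are the mean ± SD. The Vcan points of Van (92.6 to 179 CPM) lie above those of Con (32.1 to 55.5 CPM), while 8 of the 10 panels show overlapping groups.

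S100a10 and S100a11, the annexin-binding members, had higher means in Van but did not pass the threshold after adjustment. S100a10 was at 68.2, 72.7 and 59.6 CPM in Con and at 70.0, 87.2 and 109 CPM in Van. Van 2 and Van 3 were above the Con samples, and Van 1 lay among them. This was a log2 difference of 0.41 with a standard error of 0.15 (adjusted p = 0.219, edgeR). It ranged from 0.23 to 0.55 with 1 sample left out, and was called in 0 of 6 fits. DESeq2 called this gene, at an adjusted p of 0.0498 for a log2 difference of 0.41. S100a11 was at 144.9, 145.3 and 120.2 CPM in Con and at 146.9, 159 and 199 CPM in Van. Its groups did not overlap, the lowest Van sample lying just above the highest Con sample. Its log2 difference was 0.30 with a standard error of 0.12 (adjusted p = 0.262, edgeR). This moved between 0.16 and 0.39 with 1 sample left out, with 0 of 6 fits calling it.

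S100a4 and S100a6 had similar levels in both groups. S100a4 was at 355, 395 and 308 CPM in Con and at 323, 356 and 437 CPM in Van. S100a6 was at 167, 183 and 141 CPM in Con and at 141, 158 and 199 CPM in Van. For both, the groups overlapped. S100a4 had a log2 difference of 0.08 with a 95% interval from -0.20 to 0.36 (adjusted p = 0.832, edgeR), and S100a6 one of 0.02 with an interval from -0.29 to 0.33 (adjusted p = 0.964). The sign was negative without Con 3 and without Van 3 for each of them, and for S100a6 also in the limma fits.

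S100a8 and S100a9, the subunits of calprotectin, were low and variable. S100a8 was at 1.62, 1.03 and 1.99 CPM in Con and at 0.719, 2.77 and 0.922 CPM in Van, from 43.5 to 140.7 estimated counts per sample. S100a9 was at 2.33, 0.734 and 3.56 CPM in Con and at 0.310, 2.29 and 0.497 CPM in Van, from 18.7 to 153.5 estimated counts. For both genes, Con 3 and Van 2 were the highest of their groups and Con 2 and Van 1 the lowest, and the groups overlapped. The highest sample of the Van group was 3.85 times the lowest for S100a8 and 7.39 times for S100a9. The log2 difference was -0.08 with a 95% interval from -1.23 to 1.08 for S100a8 (adjusted p = 0.963, edgeR), so that a difference of about the size seen for S100a10 was not detectable at these levels. The sign of the S100a8 difference was positive without Con 3, Van 1 or Van 3. For S100a9 the log2 difference was -1.10 with an interval from -2.85 to 0.65 (adjusted p = 0.540). It was -2.44 without Van 2 and -0.57 without Con 3.

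The matrix gene Fn1 and the lectin gene Chil3 had the widest ranges within the Van group among the 8 members other than S100a8 and S100a9, the highest sample being 2.07 times the lowest for Fn1 and 2.32 times for Chil3. Fn1 was at 2818, 3176 and 2503 CPM in Con and at 1576, 2308 and 3268 CPM in Van. Van 3 was the highest and Van 1 the lowest of all 6 samples. In Van against Con the log2 difference was -0.25 with a standard error of 0.22 (adjusted p = 0.649, edgeR), with -0.54 without Van 3 and -0.02 without Van 1. Chil3 was at 605, 562 and 288 CPM in Con and at 536, 483 and 1120 CPM in Van. Van 1 and Van 2 lay among the Con samples, and Van 3 was above all others. This gave a log2 difference of 0.56 with a standard error of 0.35 (adjusted p = 0.496), and 0.07 without Van 3.

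Ly6c2 was lower in Van in 2 of 3 samples. It was at 389, 404 and 359 CPM in Con and at 262, 272 and 377 CPM in Van. Van 1 and Van 2 were below all Con samples, and Van 3 lay among them. The log2 difference was -0.34 with a standard error of 0.13 (adjusted p = 0.240, edgeR). Without Van 3 it was -0.53 and was called (adjusted p = 0.0436). Ly6c1, the neighbouring gene whose transcript matches that of Ly6c2 over 822 bases at 98.6% identity, was at 40.1, 43.0 and 39.0 CPM in Con and at 27.0, 31.7 and 39.5 CPM in Van, and had a log2 difference of -0.31 (adjusted p = 0.265). Reads of this pair could be split between the genes, and how the authors treated reads that align to several places is not stated.

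Over the 10 genes, 6 were higher and 4 lower in Van, and 4 had an unadjusted p under 0.05 (Vcan, S100a10 and S100a11 higher, Ly6c2 lower). That unadjusted threshold was met by 16.5% of all genes tested. Samples of Con and Van were fully separated for 2 of the 10 genes, Vcan and S100a11, against 22.5% of those tested in the whole table. The median log2 fold change was 0.05 over the 10 genes, 0.02 over the 9 genes other than Vcan and -0.0014 over all genes tested.

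**Figure D2:**
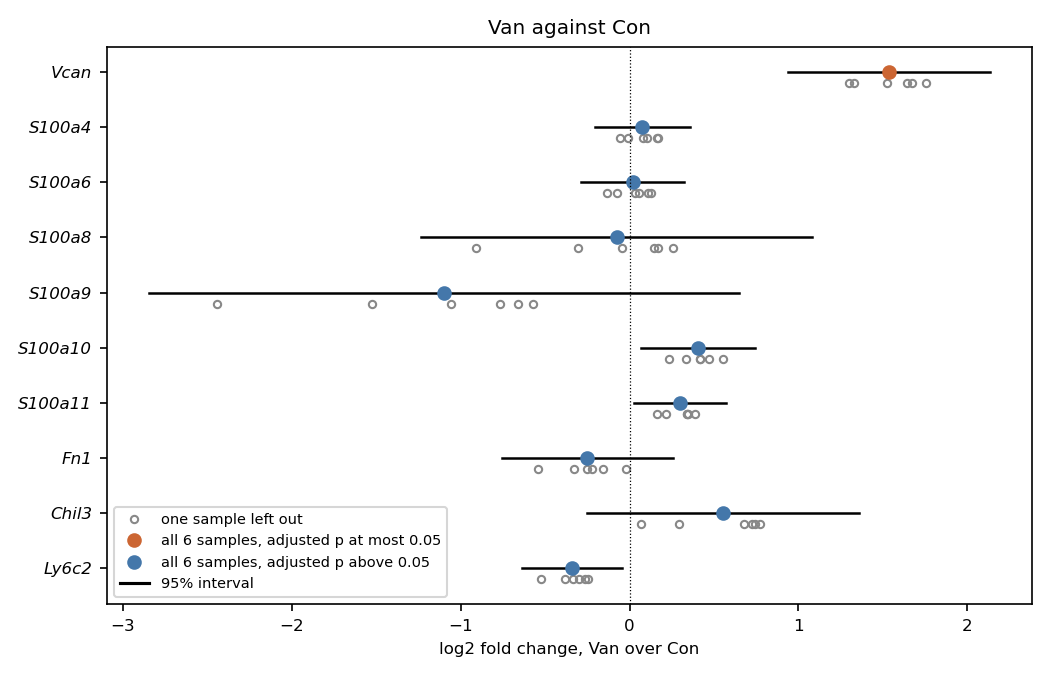
Log2 fold change of Van over Con (x axis) for each of the 10 genes. Filled points are the edgeR estimates from all 6 samples with their 95% intervals, orange where the adjusted p is at most 0.05, and open grey points are the fits with 1 sample left out. Vcan, at 1.54, is the only orange point, and the open points of S100a4, S100a6 and S100a8 fall on both sides of 0.

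Most of the members rose and fell together from sample to sample within a group. In the Con group, Con 3 had the lowest value of each of the 8 genes other than S100a8 and S100a9, and Con 2 the highest of 7 of the 8, with Chil3 highest in Con 1. In the Van group, Van 3 had the highest value of all 8 genes and Van 1 the lowest of 7, with Chil3 lowest in Van 2. The level in Van 3 was 1.35 to 2.09 times that in Van 1 over the 8 genes. These 8 genes were set apart from S100a8 and S100a9 after the values had been seen, so the pattern is given without a test.

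**Figure D3:**
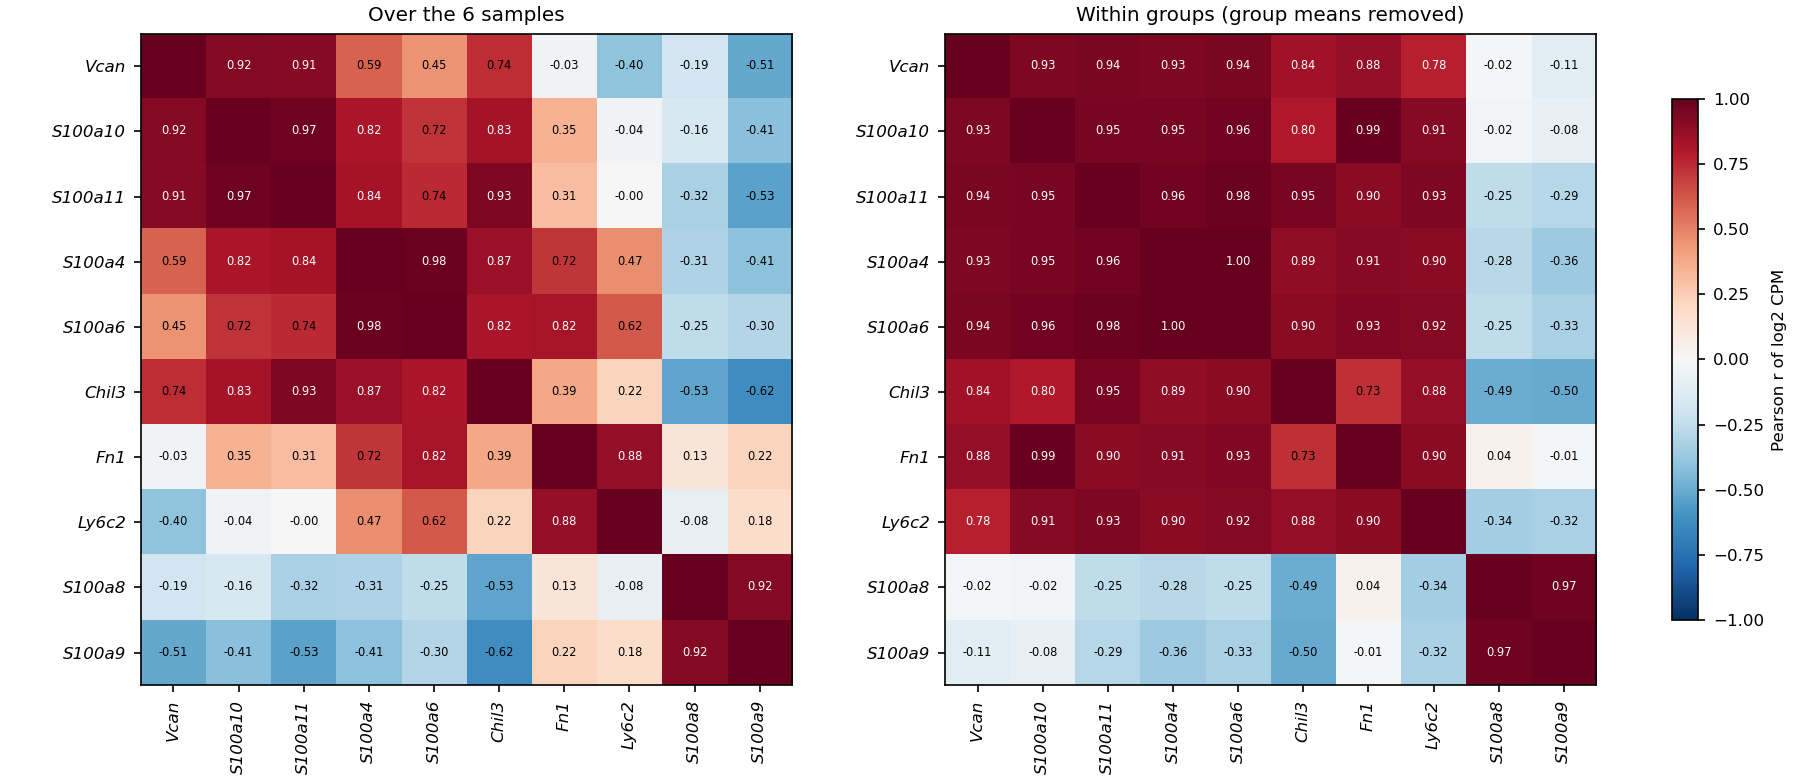
Pearson r of log2 CPM for each pair of the 10 genes over the 6 samples (left) and after removal of each group's mean (right), from blue (-1) to red (1). On the right, the block of 8 genes has values of 0.73 to 1.00, while S100a8 and S100a9 pair with each other at 0.97.

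Over the 6 samples, r of log2 CPM was above 0 for 28 of the 45 pairs. S100a4 and S100a6 were the most alike, with a Pearson r of 0.98 (exact permutation p = 0.00556) and a Spearman rho of 0.89 (exact permutation p = 0.0333). Without Con 3 and Van 3, the samples farthest from the median of S100a4, r was 0.97. S100a10 and S100a11 had an r of 0.97 (exact permutation p = 0.00417) and a rho of 0.94 (exact permutation p = 0.0167), and r was 0.95 without Van 2 and Van 3. S100a8 and S100a9 had an r of 0.92 (exact permutation p = 0.0264) and a rho of 0.83 (exact permutation p = 0.0583), and r was 0.998 without Van 1 and Van 2. None of the 45 pairs had an adjusted p of at most 0.05. The adjusted Pearson p was 0.0625 for the first of these pairs and for the second, and 0.159 for S100a8 with S100a9, while the adjusted Spearman p was 0.25, 0.188 and 0.328. With 6 samples, a single pair cannot reach an adjusted p below 0.0625 over 45 pairs.

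Among the members, Vcan was most like S100a10 and S100a11 over all samples. Its r was 0.92 with S100a10 and 0.91 with S100a11 (adjusted exact permutation p = 0.0625 for both), and 0.81 and 0.90 without Con 3 and Van 3. With Fn1 its r over the 6 samples was -0.03 (exact permutation p = 0.956, adjusted p = 0.977) and rho was 0.14 (exact permutation p = 0.803, adjusted p = 0.903), and r was -0.60 without Con 3 and Van 3. After removal of the group means, r of Vcan with Fn1 was 0.88. With Ly6c2 it changed from -0.40 over the 6 samples to 0.78 within the groups. With S100a8 it was -0.19 over the 6 samples (exact permutation p = 0.715, adjusted p = 0.832), with a rho of -0.31 (exact permutation p = 0.564, adjusted p = 0.793) and an r of 0.43 without Con 3 and Van 3, and -0.02 within the groups. Ly6c2 with Chil3 had an r of 0.22 over the 6 samples (exact permutation p = 0.590, adjusted p = 0.738) and a rho of 0.54 (exact permutation p = 0.297, adjusted p = 0.637). Their r was 0.78 without Con 3 and Van 3, and 0.88 within the groups.

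Within the groups, r was positive for all 28 pairs among the 8 genes other than S100a8 and S100a9, with a median of 0.92 and a range of 0.73 to 1.00. Over the 6 samples without centring, it was positive for 24 of these 28 pairs, with a median of 0.73. Of the 16 pairs of S100a8 or S100a9 with another member, 1 was positive within the groups, and the median was -0.26. S100a8 with S100a9 was at 0.97 within the groups. As a background, the within-group r of Ly6c2 with the 8486 other genes of at least 10 CPM had a median of 0.02. Of these genes, 8.79% were at or above 0.78, the lowest value of Ly6c2 with the other 7. For Vcan the median was also 0.02 and the share at or above its lowest value was 9.91%. The 8 genes were set apart with these values in view, so the shares are no test of them. Centred values rest on 3 samples a group, so these r are a description of 6 libraries.

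**Figure D4:**
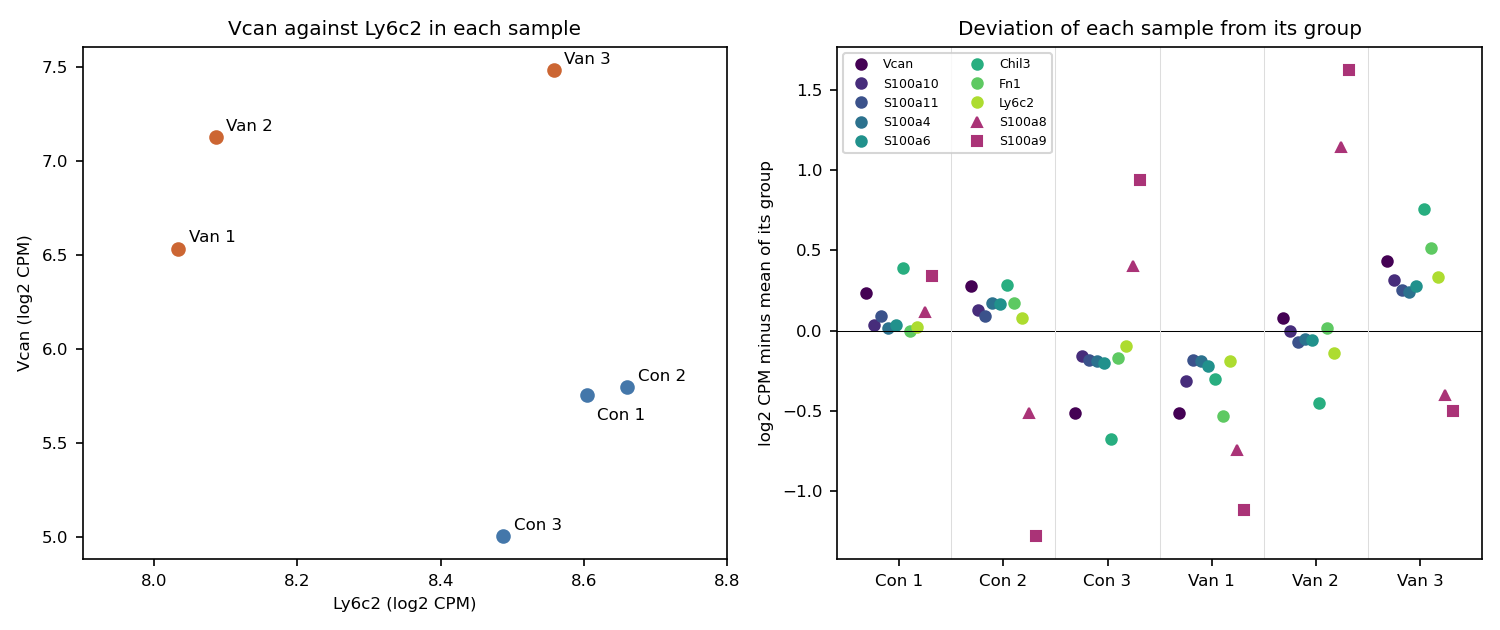
Left, Vcan against Ly6c2 in each sample (log2 CPM on both axes, blue Con, orange Van). Right, log2 CPM minus the mean of the sample's group (y axis) for each gene in each sample, with S100a8 as triangles and S100a9 as squares. The Van samples lie above the Con samples at left, and at right the circles are below 0 in Con 3 and Van 1 and above 0 in Van 3.

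The level of Vcan relative to Ly6c2 separated the groups. The log2 CPM of Vcan minus that of Ly6c2 was -2.85, -2.87 and -3.48 in Con and -1.501, -0.96 and -1.08 in Van. The lowest Van sample was above the highest Con sample. The mean difference between the groups was 1.89 on this scale, larger than the SD of 0.36 in Con and 0.29 in Van (exact two-sided permutation p = 0.10, the smallest that 3 samples against 3 allow). Relative to Fn1, Vcan differed by 1.83 between the groups, and relative to S100a4 by 1.46, with the same exact p of 0.10. These differences were chosen with the values in view.

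The other genes of the classical subset did not move as a group. Of 9 further classical monocyte genes, all tested, 5 were higher and 4 lower in Van (median log2 fold change 0.12), and 2 were called, both lower. Ccr2, the chemokine receptor that lets classical monocytes leave the marrow, was at 757, 757 and 680 CPM in Con and at 316, 444 and 473 CPM in Van. Every Van sample was below every Con sample, and the log2 fold change was -0.83 with a standard error of 0.14 (adjusted p = 0.0283, edgeR). Ccr2 remained called without Van 1 (adjusted p = 0.0113) and without Van 3 (adjusted p = 0.0436). It was not called without Con 1 (adjusted p = 0.0722), Con 2 (adjusted p = 0.0904), Con 3 (adjusted p = 0.0991) or Van 2 (adjusted p = 0.0983). Ifitm6, an interferon-induced transmembrane protein gene, was at 224, 230.0 and 229 CPM in Con and at 151, 156 and 153 CPM in Van. This gave -0.57 as its log2 fold change, with a standard error of 0.05 (adjusted p = 0.00281, edgeR). It was called in each of the 6 fits with 1 sample left out. F13a1 (the A subunit of coagulation factor XIII) and Plac8 had log2 differences of 0.20 and -0.08 (adjusted p = 0.792 and 0.633, edgeR). The sign turned for F13a1 without Van 3, and for Plac8 in the limma fits. DESeq2 called Cd14 in addition, and limma on log2(FPKM + 1) called Ifitm6 alone.

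Of 10 non-classical monocyte genes, all tested, 5 were higher and 5 lower in Van (median log2 fold change 0.0049), and 1 was called by edgeR. The unadjusted edgeR p was under 0.05 for 5 of the 10, against 16.5% of all genes tested. DESeq2 called 3, Ear2, Eno3 (log2 difference -0.46 with edgeR) and Fcgr4 (0.41), and limma on log2(FPKM + 1) called 0. Ear2, a ribonuclease gene with near-identical copies such as Ear1 and Ear10, was at 291, 320 and 297 CPM in Con and at 241, 246 and 225 CPM in Van. This gave -0.35 as its log2 fold change, with a standard error of 0.06 (adjusted p = 0.0319, edgeR). With 1 sample left out, it was called in 0 of 6 fits, with an adjusted p of 0.0585 without Con 1, 0.102 without Con 2, 0.121 without Con 3, 0.0681 without Van 1, 0.122 without Van 2 and 0.0989 without Van 3. Nr4a1, the transcription factor on which the subset depends, differed by 0.11 (adjusted p = 0.714) and by -0.05 without Van 1. Treml4, a receptor of the same cells, differed by 0.19 (adjusted p = 0.256). Genes of both subsets were detected in every sample, with Nr4a1 at a mean of 1140 FPKM in Con and 1236 FPKM in Van and Ly6c2 at 396 and 317 FPKM.

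Within the groups, however, the genes of the subsets followed Ly6c2 and Vcan, the members compared with them, in opposite directions. The within-group r with Ly6c2 was positive for 8 of the 9 further classical genes, with a median of 0.57, the exception being Ifitm6 at -0.06. It was negative for 10 of the 10 non-classical genes, with a median of -0.74. With Vcan, 9 of the 9 classical genes were positive, with a median of 0.59, and 10 of the 10 non-classical genes negative, with a median of -0.83. Nr4a1 was lowest in Van 3 and highest in Van 1 of the Van group, where the 8 members were highest and, but for Chil3, lowest. In the Con group it was highest in Con 3, where the 8 members were lowest. It was lowest in Con 1 and not in Con 2, where 7 of the 8 were highest. These r also rest on 3 samples a group. The part of subset proportions in the members' values was not tested.

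**Figure D5:**
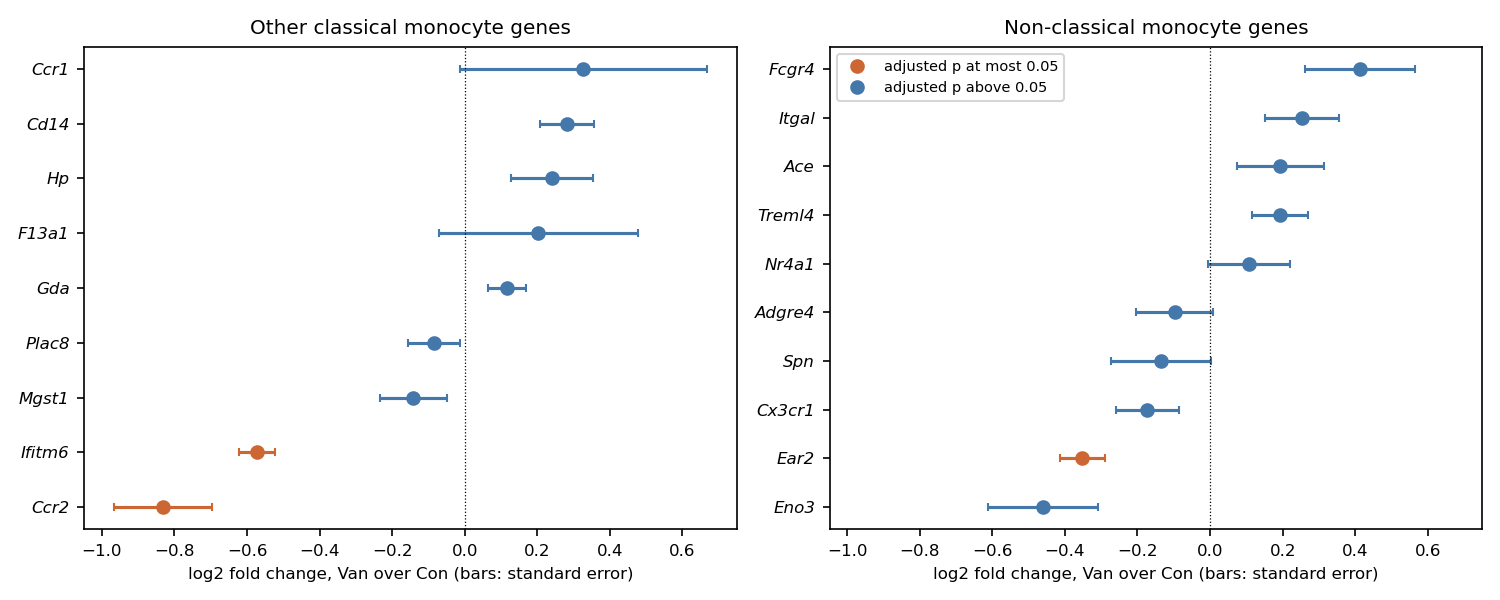
Log2 fold change of Van over Con (x axis) with its standard error for 9 further classical (left) and 10 non-classical (right) monocyte genes. Orange points have an adjusted p of at most 0.05. Ccr2 and Ifitm6 at left and Ear2 at right are called, all lower in Van, and the remaining points lie on both sides of 0.

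The partners and receptors of the members and relatives were described in 5 lists, and none of their genes was called by edgeR. DESeq2 called 2 of them, Itgav and Itgb7 of the fibronectin receptor list, both lower in Van, and limma on log2(FPKM + 1) called 0. The unadjusted edgeR p was under 0.05 for 0 of the other S100 genes, 0 of the S100 partners, 1 versican and hyaluronan gene, 6 fibronectin receptor genes and 1 chitinase-like or Ly6 gene. Of 9 other S100 family genes, 2 passed the filter, S100a1 and S100a13, with 1 higher and 1 lower in Van (S100a13, log2 difference -0.06, adjusted p = 0.821, edgeR), and S100b and S100z were at 0 in all samples. Of 11 S100 partners and receptors, all tested, 7 were higher and 4 lower. Anxa2, the partner of S100a10, differed by a log2 value of 0.09 (adjusted p = 0.702, edgeR), with its sign turning to -0.01 without Van 3. Anxa1, the partner of S100a11, differed by 0.22 (adjusted p = 0.357), Tlr4 by -0.12 (adjusted p = 0.439), and Ager, another S100 receptor, by -0.49 (adjusted p = 0.309). Of 16 versican and hyaluronan genes, 7 were tested, 4 higher and 3 lower. Cd44, the hyaluronan receptor, was at 910, 976 and 936 CPM in Con and at 1072, 1031 and 1015 CPM in Van. Every Van sample was above every Con sample, but the log2 difference was 0.14 with a standard error of 0.05 (adjusted p = 0.220). The hyaluronan synthase genes Has1 and Has2 and the versican-cleaving protease genes Adamts4 and Adamts15 were at 0 in all samples.

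Of 11 fibronectin receptor and crosslinking genes, all tested, 7 were higher and 4 lower in Van. Itga5, a subunit of the classical fibronectin receptor, differed by a log2 value of 0.29 (adjusted p = 0.281, edgeR). Itga4, a subunit of a receptor shared with Vcam1, differed by -0.27 (adjusted p = 0.224). Itgb7, a partner of Itga4, was at 405, 383 and 455 CPM in Con and at 328, 289 and 358 CPM in Van, a log2 difference of -0.35 (adjusted p = 0.10 with edgeR and 0.00617 with DESeq2). All 3 Van samples were below the Con samples. Of 11 chitinase-like and Ly6 family genes, 7 were tested, 1 higher and 6 lower.

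The genes whose log2 CPM was most like that of Vcan over the 6 samples, among 8487 genes of at least 10 CPM, were Antxr2 (Pearson r = 0.995), Polr2f (0.991), Zfp664 (0.991), Rbsn (0.991) and Klhdc2 (0.990). Each was higher in Van by a log2 value of 0.23 to 0.35, with none called. The genes most like S100a8 were Ddx17 (r = 0.972), Rab2b (0.956), Gipc1 (0.954), Isg20 (0.943) and Rrm1 (0.940). With 6 samples and 8487 genes, such values are a description.

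Among markers of other spleen cells, edgeR called only erythroid genes, higher in Van, and the dendritic cell gene Clec9a, lower in Van. The erythroid list summed to 81.2 to 169 CPM in the Con samples and 282 to 622 CPM in the Van samples, and 5 of its 8 genes were called higher (Hba-a1, Hba-a2, Hbb-bs, Hbb-bt and Alas2). DESeq2 called 6 and limma on log2(FPKM + 1) called 0. With 1 sample left out, edgeR called 4 of the 5 without Van 3 (all but Hba-a1), Alas2 alone without Van 1, and 0 of the 5 without Con 1, Con 2, Con 3 or Van 2. All 8 were higher in Van, at a median log2 fold change of 1.78. Hbb-bs was at 32.8, 46.9 and 24.1 CPM in Con and at 120.3, 180.3 and 80.7 CPM in Van. The highest and lowest Con samples were those of Vcan for 6 of the 8 erythroid genes, and the highest and lowest Van samples were those of Vcan for 0 of the 8. The 6 red pulp macrophage genes were all higher in Van, summing to 1797 to 2137 CPM in Con and 2254 to 2824 CPM in Van, with 0 called by edgeR, 2 by DESeq2 (C1qb and Vcam1), 0 by limma and 4 at an unadjusted edgeR p under 0.05. Of these, Vcam1, an adhesion molecule gene, had the smallest p (log2 difference 0.46, adjusted p = 0.0621), and edgeR called it with no filter on low counts (adjusted p = 0.0372) and with the replicate block (adjusted p = 0.0383). The dendritic cell list had Clec9a called lower (log2 fold change -1.12, adjusted p = 0.0131, edgeR) and 5 of 6 genes lower. The unadjusted edgeR p was under 0.05 for 5 of the 6, among them Flt3, the gene that was higher. DESeq2 called Siglech and Xcr1 in addition, both lower, and limma on log2(FPKM + 1) called 0, with Clec9a at a log2 difference of -0.59 (adjusted p = 0.134). With edgeR, Clec9a was not called without Con 3 (adjusted p = 0.0721) or Van 2 (adjusted p = 0.0758). The B cell, plasma cell, T cell, NK cell, platelet, eosinophil, monocyte identity and stromal lists had 0 genes called by edgeR, with 0, 2, 1, 0, 2, 0, 1 and 0 at an unadjusted p under 0.05. DESeq2 called Sdc1 of the plasma cell list and Itgam of the monocyte identity list (log2 difference -0.21), and limma called 0. Their part in the values of the members was not tested.

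The neutrophil list stood beside S100a8 and S100a9, which neutrophils hold in large amounts. Of its 14 genes, 12 were tested and none was called by edgeR or limma, 2 having an unadjusted edgeR p under 0.05, while DESeq2 called Csf3r. Its summed level was 356 to 407 CPM in Con and 413 to 478 CPM in Van, most of it from Csf3r (log2 difference 0.22, adjusted p = 0.0781, edgeR), which monocytes also express. Among the defining neutrophil markers, Ly6g was at 0 and Camp was below the filter. Ngp, a neutrophil granule protein gene singled out after its values were seen, was at 1.31, 1.25 and 2.104 CPM in Con and at 0.245, 1.29 and 0.337 CPM in Van. As for S100a8 and S100a9, Con 3 and Van 2 were its highest samples and Con 2 and Van 1 its lowest. Of the 12 neutrophil genes tested, 3 had this order in Con and 7 had it in Van. Only 2, Ngp and Ltf, had it in both groups, with Ltf at 0 in Van 1 and Van 3, and the other 10 did not. Retnlg was at 1.14, 0.350 and 0.624 CPM in Con and at 0.0490, 0.196 and 0.106 CPM in Van (log2 difference -2.59, adjusted p = 0.0904, edgeR). The part of neutrophil RNA in the values of S100a8 and S100a9 was not tested.

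Sequence shared with other genes touches 4 of the 10 members. S100a4 shares 302 identical bases with the overlapping gene Gm42674 on its own strand, and Ly6c2 shares sequence with Ly6c1. S100a11 has the copies Gm12854 and Gm7665 at up to 99.0% identity, with means of 3.45 and 3.62 CPM in Con and 3.41 and 3.84 CPM in Van, against 137 and 168 CPM for S100a11 itself. Fn1 overlaps an exon of Apol7d on the opposite strand. For Vcan, S100a6, S100a8, S100a9, S100a10 and Chil3, no transcript of another gene matched over at least 200 bases at 95% identity and no exon overlap was found.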

How the data were processed

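Messenger RNA of Con and Van monocytes was sequenced from 3 samples a group. The authors aligned reads to GRCm38 with HISAT2 2.2.1 and SAMtools 1.9, and assembled them with StringTie 2.1.3 and Ballgown. The deposited estimated counts were made by the authors through tximport, without scaling to library size. The deposited FPKM values were made by the authors with StringTie and Ballgown, and are scaled to length and depth. The annotation release and the treatment of multi-mapping reads and strand are not given in the sources used here. The labels list DESeq2 1.38.3 as well. VanLip samples were not analysed here.

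The counts were rounded and tested in R 4.3.3 with edgeR 4.0.16 (TMM, expression filter at a minimum count of 10, quasi-likelihood test, Benjamini-Hochberg adjustment over 16138 genes). Genes with adjusted p up to 0.05 count as called. CPM used TMM library sizes in the tests and a prior count of 2 on the log2 scale. The deposited counts behave as bases divided by 75, since multiplied by 75 they were whole (within 0.05) for 52.3% to 55.0% of values, against 9.56% to 9.98% for 74, while the reads are stated as 100 bases. Totals of fragments were therefore scaled, and tests may count each fragment more than once. Within groups, chi-square per gene was 20.9 to 43.5, so no library was a repeat of another. P-values measure the spread between these samples, and intervals cover no other error.

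Correlations of log2 CPM were tested by exact permutation of 6 samples. Coordinates and near-identical copies came from GENCODE M21, which held 98.2% of the identifiers, and promoter windows from RefSeq. The alternatives were DESeq2 1.42.0, limma 3.58.1 on quantile-normalized log2(FPKM + 1) and log2(FPKM + 0.1) and with a mean FPKM of at least 1, other size factors, no filter, a replicate block, a single identifier per symbol and each sample left out. The fragment scale and the difference of Vcan from other members were added after the data were seen. The tests were tested on simulated data. The 10 genes, the lists and the alternatives were chosen with earlier results of these data known. The genes named are the 10 members, 12 fixed partners and subset genes, the called genes of each list or otherwise its gene of smallest p, and the 5 genes most like Vcan and S100a8. Csf1r, S100a1, Hbb-bs, Ngp, Ltf, Retnlg, Mmp8 and Chil4 and genes at 0 were also named after values were seen. A further gene of the classical monocyte list is not reported here and was left out of its counts.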

Additional observations from a re-analysis of the deposited data

How the results depend on the processing

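The number of genes called in Van against Con was 322 and depended on the test. It was 983 with DESeq2 (499 higher in Van), 39 with limma on log2(FPKM + 1), 4 on log2(FPKM + 0.1), 46 with a mean FPKM of at least 1, 110 with the replicate block, and 21 to 136 with 1 sample left out. The number of the 10 members called was 1. It was 2 with DESeq2 (Vcan and S100a10), 0 with the replicate block, 0 in each of the 3 limma fits, and 0 to 1 with 1 sample left out. The genes called over the lists numbered 9, against 22 with DESeq2, 1, 0 and 1 in the limma fits, and 1 to 7 with 1 sample left out. Other size factors, no filter, a single identifier per symbol and the fragment scale left these counts within 1.5 times. Vcan was higher in Van in every fit run. With the replicate block its log2 fold change was 1.52 and its adjusted p 0.0895, and Ccr2 (adjusted p = 0.0549) and Ear2 (adjusted p = 0.0628) were not called either. Same-numbered samples deviated from their group means with r of 0.025, -0.0019 and -0.073, against -0.059 to 0.059 for samples of different numbers. Whether same-numbered samples shared a day or batch was not tested and cannot be told from these values. In the 3 limma fits, the difference of S100a6 was -0.0270, -0.0271 and -0.0270 and that of Plac8 0.0369, 0.0370 and 0.0369, against their signs with edgeR. With 1 sample left out, signs turned for S100a4 (-0.0563 to 0.17), S100a6 (-0.13 to 0.12), S100a8 (-0.91 to 0.26), Nr4a1 (-0.0537 to 0.20), S100a13 (-0.15 to 0.0237), Anxa2 (-0.0076 to 0.17) and F13a1 (-0.12 to 0.45). The cause of these differences was not tested. Correlations were recomputed without the 2 samples farthest from the median, and not with each sample left out in turn. On log2(FPKM + 1), 29 of 45 pairs were positive and 0 passed the adjusted threshold, and centred on the group means 30 were positive. Counts under 160 limit S100a8 and S100a9.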

Other observations

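Mmp8, the gene of neutrophil collagenase, was listed with the neutrophil markers but was ordered like 7 of the 8 members (all but Chil3) rather than like S100a8 and S100a9. It was at 35.7, 60.5 and 30.4 CPM in Con and at 33.8, 55.7 and 89.5 CPM in Van, with Con 2 and Van 3 highest, and its groups overlapped (log2 difference 0.50, adjusted p = 0.545, edgeR). The difference was 0.08 without Van 3 and 0.85 without Con 2. Chil4, the closest relative of Chil3 in these lists, was at 9.39, 8.71 and 4.32 CPM in Con and at 8.09, 7.88 and 18.7 CPM in Van. Its highest and lowest samples in each group were those of Chil3, and its log2 difference was 0.62 (adjusted p = 0.475), against 0.09 without Van 3. Both genes were chosen after their values were seen. Whether reads of Chil3 were in part assigned to Chil4 was not tested.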
